A study of Homo sapiens with 8 samples.

Results

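The genes described here are 8 genes of the acute-phase and innate response, out of 13771 genes with deposited expression values: the serum amyloid A genes SAA1 and SAA2, the complement genes C3 and CFB, the antimicrobial and antiprotease genes LCN2, SLPI and PI3, and CP, which encodes ceruloplasmin. They were selected by name from a list of 8 symbols, and all 8 were found in the table, so no member was lost to a filter on low values. The list was selected on earlier results of these data, in which the fold changes between HOTAIR and empty vector in DCIS.COM cells were in view. The values of that comparison are therefore given as a description, with no test.

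MCF10A cells are immortalized, non-tumorigenic human breast epithelium. DCIS.COM cells share the MCF10A lineage, and their xenografts grow as lesions like ductal carcinoma in situ. Each line was stably transduced with the lentiviral vector pCDH carrying the long non-coding RNA HOTAIR (pCDH-HOTAIR) or with the vector alone (pCDH-empty), and all 4 cell populations were selected with 10 µg/mL puromycin. Each of the 4 groups has 2 RNA-seq libraries, and the labels do not say whether the libraries of a group came from separate cultures, so p-values measure only the spread between these libraries, which may be technical. The media differed: MCF10A cells were grown with 5% horse serum, epidermal growth factor at 20 ng/mL, hydrocortisone at 100 µg/mL, insulin at 10 µg/mL and cholera toxin at 100 ng/mL, while for DCIS.COM the labels name 5% horse serum only. The effects of line and medium cannot be told apart in any comparison of the cell lines below. In bulk RNA, fewer expressing cells and less RNA per cell cannot be told apart either.

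Acute-phase genes are switched on in the liver and in epithelia by interleukin-1, tumor necrosis factor and interleukin-6, which act through the transcription factors NF-kB, C/EBP and STAT3. In epithelia, serum amyloid A, complement, the iron-chelator carrier lipocalin-2 and the small antiproteases form a local defense against microbes and against neutrophil proteases. In the mammary gland several of them are also secreted into milk or appear during involution and inflammation.

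The promoters of CFB and LCN2 are shown because the related factors are counted below, and because only these 2 of the 8 genes had a promoter entry. The 2 were not chosen for their values. CFB was among the most changed between the lines, and LCN2 was the least changed. Each promoter is the 250 bases upstream of the RefSeq start site (table built on GRCh38.p14, each matched once by sequence in GRCh37, the build of the study). CFB lies on the plus strand at chr6:31913622-31913871 and LCN2 on the plus strand at chr9:130911482-130911731. Both windows fall inside the gene spans given below, which come from the GENCODE annotation and begin upstream of these RefSeq start sites. Capitals mark matches to GGANNNTCC (NF-kB-like), TTNNGNAA (C/EBP-like) or TTCNNNGAA (STAT-like), searched on both strands.
CFB: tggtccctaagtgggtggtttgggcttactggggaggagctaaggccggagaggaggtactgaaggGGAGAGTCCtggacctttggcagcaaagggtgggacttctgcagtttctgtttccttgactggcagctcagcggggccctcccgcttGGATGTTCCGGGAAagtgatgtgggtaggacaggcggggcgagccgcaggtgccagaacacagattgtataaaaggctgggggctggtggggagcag
LCN2: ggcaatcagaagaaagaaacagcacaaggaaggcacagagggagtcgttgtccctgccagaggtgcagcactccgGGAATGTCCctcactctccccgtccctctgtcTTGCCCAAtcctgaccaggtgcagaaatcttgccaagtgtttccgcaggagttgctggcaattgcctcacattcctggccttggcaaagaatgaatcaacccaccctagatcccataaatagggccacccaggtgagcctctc
In CFB, the NF-kB-like matches were GGAGAGTCC at -184 to -176 and GGATGTTCC at -97 to -89, and the latter overlapped a STAT-like match, TTCCGGGAA, at -92 to -84. LCN2 held the NF-kB-like match GGAATGTCC at -175 to -167 and a C/EBP-like match on the minus strand at -143 to -136. Over 35116 promoter windows of this length, 7.80% held the NF-kB-like motif, 33.2% the C/EBP-like motif and 6.57% the STAT-like motif. A match is a description of letters, not a binding site.

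Recovered depth ran from 19306864 to 34884841 reads per library. HOTAIR itself was at 45 and 40 reads with pCDH-empty against 4614 and 4827 with pCDH-HOTAIR in MCF10A, and at 119 and 140 against 7166 and 6385 in DCIS.COM. The first DCIS.COM pCDH-empty library stood apart: 18.92% of its reads were on RN7SL genes (11.08% to 14.95% in the other libraries), and its distance to its replicate was 46.4, against 22.3 between the DCIS.COM pCDH-HOTAIR libraries (root of the summed squared differences in log2 CPM). All 6 basal and all 7 luminal or general epithelial markers chosen for the check were in the table, and none of 8 hepatocyte markers was. The basal markers summed to 13675 to 16227 CPM in MCF10A and 3047 to 3558 CPM in DCIS.COM. The luminal or general markers summed to 1597 to 1711 CPM in MCF10A and 4995 to 5856 CPM in DCIS.COM. Of 8 leukocyte markers 3 were in the table (CD14, CSF1R and CD68, summing to 50.0 to 55.2 CPM in MCF10A and 6.0 to 6.82 CPM in DCIS.COM, while PTPRC was not), and of 7 fibroblast markers 2 (COL1A1 and COL1A2, 8.35 to 18.3 and 0.99 to 1.69 CPM). The basal, leukocyte and fibroblast sums moved between the lines in the same direction as the serum amyloid and complement genes. The luminal or general sum moved in the opposite direction. The part of any of these in the differences was not tested.

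The first comparison asked how the 8 genes differ between DCIS.COM and MCF10A cells that carry the same vector. In DCIS.COM with the empty vector, SAA1, SAA2 and CFB were lower by 99.9-fold, 86.5-fold and 90.4-fold, C3 by 12.4-fold and SLPI by 6.54-fold. PI3 was higher by 2.79-fold and CP by 73.5-fold, and LCN2 stayed within 1.5-fold. A gene was called at an adjusted p under 0.05 over all genes in limma and a fold change of at least 1.5. By this rule 7 of the 8 were called with the empty vector, 5 lower and 2 higher, where 46.3% of all genes were called (22.5% higher and 23.8% lower). With the HOTAIR vector, in other libraries, the same 5 were lower and the same 2 higher, where 43.7% of all genes were called (22.0% higher and 21.7% lower). The DCIS.COM libraries of these comparisons also entered the comparison that was in view when the genes were selected. The calls and p-values between the lines are therefore not independent of that selection. The median absolute log2 fold change of the 8 genes was 4.91 with the empty vector and 4.37 with the HOTAIR vector, beside 0.54 and 0.50 over all genes. With any library left out, the one that stood apart included, 7 of the 8 were called with each vector, and the widest ranges with the empty vector were -7.01 to -6.28 for SAA1 and 5.97 to 6.43 for CP.

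**Figure D1:**
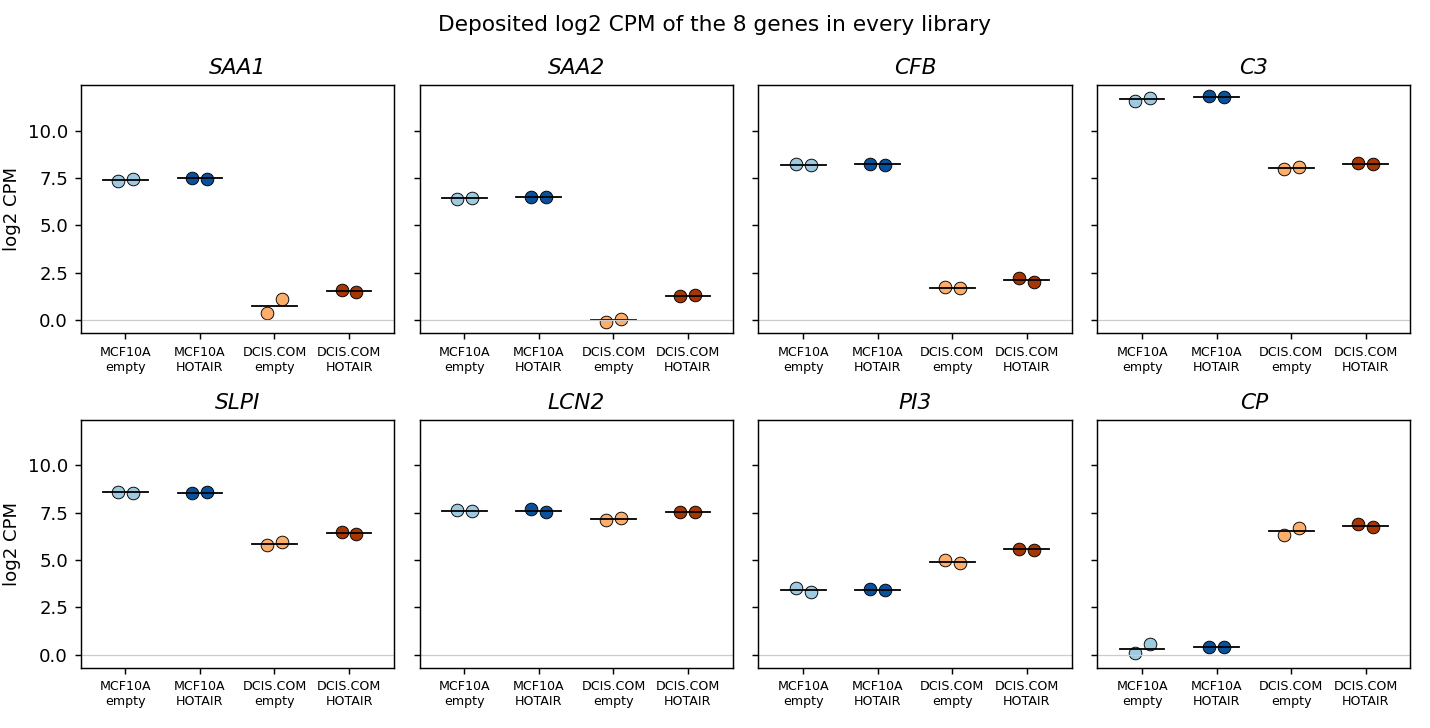
Log2 CPM of each of the 8 genes (y axis) in the 8 libraries, grouped by cell line and vector (x axis), with a point per library and a line at each group mean. SAA1, SAA2 and CFB sit between 6.41 and 8.24 in MCF10A and between -0.09 and 2.21 in DCIS.COM, while CP shows the opposite order and LCN2 lies between 7.12 and 7.68 in all libraries.

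SAA1 and SAA2 encode the inducible serum amyloid A proteins, small apolipoproteins of high-density lipoprotein that recruit and activate phagocytes. They lie 17592 nt apart on chromosome 11 (GRCh37), SAA1 on the plus strand from 18287807 to 18291524 and SAA2 on the minus strand from 18260770 to 18270215. SAA1 was at 163 and 172 CPM (read counts scaled to library size, taken back from the log2 values) in the MCF10A pCDH-empty libraries and at 183 and 173 CPM in the pCDH-HOTAIR ones. In DCIS.COM it was at 1.23 and 2.09 CPM with the empty vector and at 2.93 and 2.71 CPM with HOTAIR. Every MCF10A library was far above every DCIS.COM library, and the DCIS.COM pCDH-empty pair differed most between replicates.

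The log2 fold change of SAA1 between the lines was -6.64 (standard error 0.20, adjusted p = 6.43e-08, limma) with the empty vector and -5.95 (standard error 0.20, adjusted p = 1.11e-07) with HOTAIR. SAA2 was at 84.9 and 85.9 CPM in MCF10A pCDH-empty, at 89.7 and 88.9 CPM in MCF10A pCDH-HOTAIR, at 0.865 and 0.970 CPM in DCIS.COM pCDH-empty and at 2.36 and 2.38 CPM in DCIS.COM pCDH-HOTAIR. Again the cell lines did not overlap, and the replicates of SAA2 were closer to each other than those of SAA1. Its log2 fold change between the lines was -6.44 (standard error 0.095, adjusted p = 3.85e-09) with the empty vector and -5.19 (standard error 0.095, adjusted p = 9.64e-09) with HOTAIR. In DCIS.COM these values rest on 37 to 104 reads for SAA1 and 26 to 84 for SAA2, and a prior of 1 CPM in place of the deposited 0.0717 CPM gave -6.00 for SAA1 and -5.49 for SAA2 with the empty vector.

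The SAA1 and SAA2 transcripts are near-identical in part: 115 of the 443 windows of 76 nt, the read length, in the canonical SAA1 transcript (26.0%) also occur in SAA2, and 116 of 501 (23.2%) the other way. The split of reads between them is uncertain for this reason. In MCF10A, SAA1 had 1.93 to 2.04 reads per SAA2 read in the 4 libraries. The DCIS.COM libraries gave 1.42 and 2.15 with the empty vector and 1.24 and 1.14 with HOTAIR, on few reads. Summed as 1 gene, the pair was lower in DCIS.COM by 97.1-fold with the empty vector (log2 fold change -6.60, adjusted p = 2.23e-08) and by 50.9-fold with HOTAIR (-5.67, adjusted p = 4.19e-08).

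C3 is the central component of complement, cleaved by every pathway that activates it, and CFB encodes factor B, which supplies the protease of the alternative pathway C3 convertase. C3 lies on chromosome 19 from 6677715 to 6730573 (minus strand) and CFB on chromosome 6 from 31913427 to 31919863 (plus strand). C3 was the most abundant of the 8 in reads, at 3052 and 3373 CPM in MCF10A pCDH-empty and at 3618 and 3490 CPM in MCF10A pCDH-HOTAIR. In DCIS.COM it was at 248 and 272 CPM with the empty vector and at 309 and 299.6 CPM with HOTAIR. C3 thus fell in DCIS.COM without becoming rare, unlike CFB.

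On the log2 scale C3 differed by -3.63 (standard error 0.080, adjusted p = 1.89e-08) with the empty vector and -3.54 (standard error 0.080, adjusted p = 2.30e-08) with HOTAIR. CFB was at 299 and 289 CPM in MCF10A pCDH-empty and at 302 and 294 CPM in MCF10A pCDH-HOTAIR. In DCIS.COM, CFB was at 3.26 and 3.10 CPM with the empty vector and at 4.56 and 3.90 CPM with HOTAIR. Its log2 fold change, -6.50 (standard error 0.089, adjusted p = 2.77e-09) with the empty vector and -6.12 (standard error 0.089, adjusted p = 5.16e-09) with HOTAIR, had the smallest adjusted p of the 8 in both comparisons. CFB overlaps the annotated span of C2, and C3 that of GPR108. The counting of overlapping genes is not given in the sources used here, so reads shared with these neighbours cannot be told apart.

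LCN2 encodes lipocalin-2, which binds bacterial siderophores and so withholds iron. SLPI and PI3 (elafin) encode small secreted inhibitors of neutrophil elastase with a WAP domain. LCN2, on chromosome 9 from 130911350 to 130915732 (plus strand), was at 201 and 191 CPM in MCF10A pCDH-empty, at 205 and 188 CPM in MCF10A pCDH-HOTAIR, at 139 and 148 CPM in DCIS.COM pCDH-empty and at 186 and 186 CPM in DCIS.COM pCDH-HOTAIR. All 8 libraries thus lay within a narrow band, with the DCIS.COM pCDH-empty pair lowest. The log2 fold change between the lines was -0.45 (standard error 0.069, adjusted p = 0.000548) with the empty vector, past the p threshold but short of 1.5-fold. With HOTAIR it was -0.08 (95% interval -0.24 to 0.08, adjusted p = 0.349), and no difference was shown.

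SLPI and PI3 lie 75695 nt apart on chromosome 20, SLPI from 43880880 to 43883205 (minus strand) and PI3 from 43803543 to 43805185 (plus strand), and they differed between the lines in opposite directions. SLPI was at 384 and 379 CPM in MCF10A pCDH-empty and at 367 and 392 CPM in MCF10A pCDH-HOTAIR. In DCIS.COM it was at 54.8 and 62.0 CPM with the empty vector and at 88.0 and 81.7 CPM with HOTAIR. On the log2 scale SLPI differed by -2.71 (standard error 0.079, adjusted p = 5.41e-08) and -2.16 (standard error 0.079, adjusted p = 1.52e-07) in that order of vectors.

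PI3 was at 11.4 and 9.96 CPM in MCF10A pCDH-empty and at 11.1 and 10.5 CPM in MCF10A pCDH-HOTAIR. Its level in DCIS.COM was 31.4 and 28.2 CPM with the empty vector and 48.4 and 46.9 CPM with HOTAIR. No library of PI3 crossed from one line's range into the other's. The difference between the lines was 1.48 on the log2 scale (standard error 0.099, adjusted p = 4.07e-06) with the empty vector and 2.13 (standard error 0.099, adjusted p = 5.12e-07) with HOTAIR.

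CP encodes ceruloplasmin, the copper-carrying ferroxidase of plasma that oxidizes iron for loading onto transferrin. It lies on chromosome 3 from 148880197 to 148939616 (minus strand) and overlaps HPS3. CP had 31 and 37 reads in MCF10A pCDH-empty and 24 and 25 reads in MCF10A pCDH-HOTAIR, or 0.994 and 1.39 CPM and 1.24 and 1.25 CPM. In DCIS.COM it was at 80.3 and 104.5 CPM with the empty vector and at 118 and 105.5 CPM with HOTAIR. CP was thus rare in MCF10A, and of the 8 it was the gene with the largest rise in DCIS.COM. On the log2 scale this was 6.20 (standard error 0.18, adjusted p = 5.23e-08) and 6.40 (standard error 0.18, adjusted p = 4.79e-08), and with a prior of 1 CPM 5.41 and 5.65, for the empty and HOTAIR vectors.

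**Figure D2:**
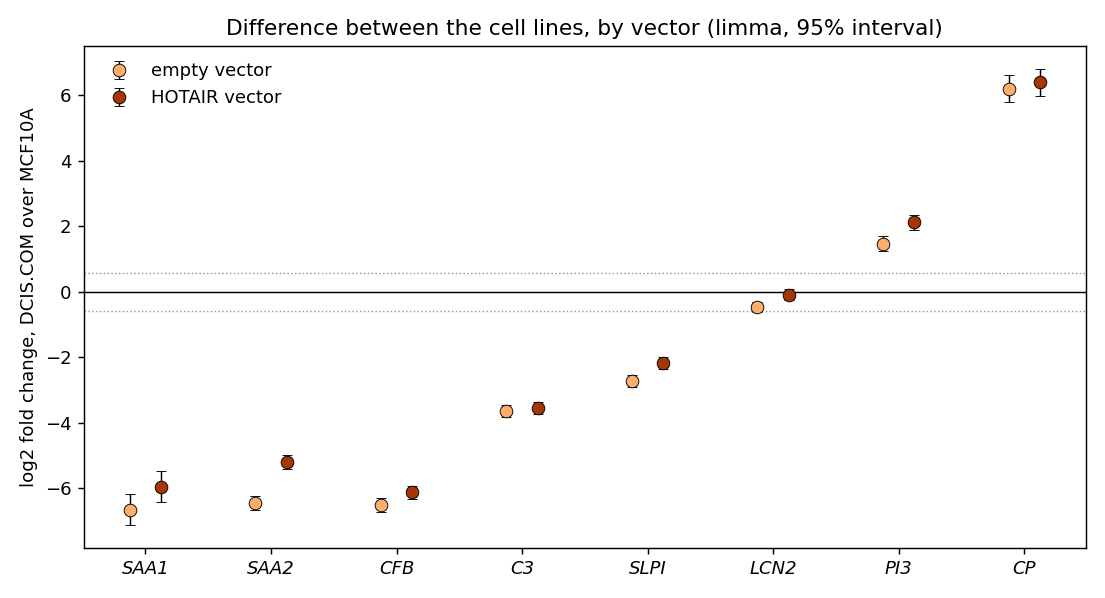
Log2 fold change of DCIS.COM over MCF10A (y axis) for the 8 genes (x axis), with the empty vector and with the HOTAIR vector; bars are 95% intervals from limma and dotted lines mark 1.5-fold. SAA1, SAA2, CFB, C3 and SLPI are below the lower line with both vectors, PI3 and CP above the upper line, and LCN2 between them.

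The share of all reads that fell on the 8 genes was 0.414% to 0.479% in MCF10A and 0.0521% to 0.0774% in DCIS.COM. C3 alone took 0.301% to 0.363% in MCF10A. Levels were compared between genes per length, as CPM per kb of the canonical transcript (GENCODE 44 on GRCh37). On this scale SLPI at 640 and C3 at 614 CPM per kb led in MCF10A pCDH-empty, and the libraries of these 2 overlapped. They were followed, with no overlap between neighbours in the order, by SAA1 at 324, LCN2 at 239, SAA2 at 148, CFB at 119, PI3 at 19.3 and CP at 0.268 CPM per kb.

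The order was different in DCIS.COM. With the empty vector LCN2 led at 175 CPM per kb, followed by SLPI at 98.0, PI3 at 54.1, C3 at 49.7, CP at 20.8, SAA1 at 3.20, SAA2 at 1.59 and CFB at 1.28 CPM per kb, and of these neighbours PI3 and C3 overlapped. With HOTAIR the order in DCIS.COM was the same, from LCN2 at 227 to CFB at 1.71 CPM per kb, without overlap between neighbours. In MCF10A with HOTAIR, C3 at 679 and SLPI at 637 CPM per kb changed places. When the length of all exons joined was used instead, SLPI came before LCN2 in DCIS.COM and before C3 in MCF10A with HOTAIR, and CFB came before SAA2 in all groups but DCIS.COM pCDH-HOTAIR.

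**Figure D3:**
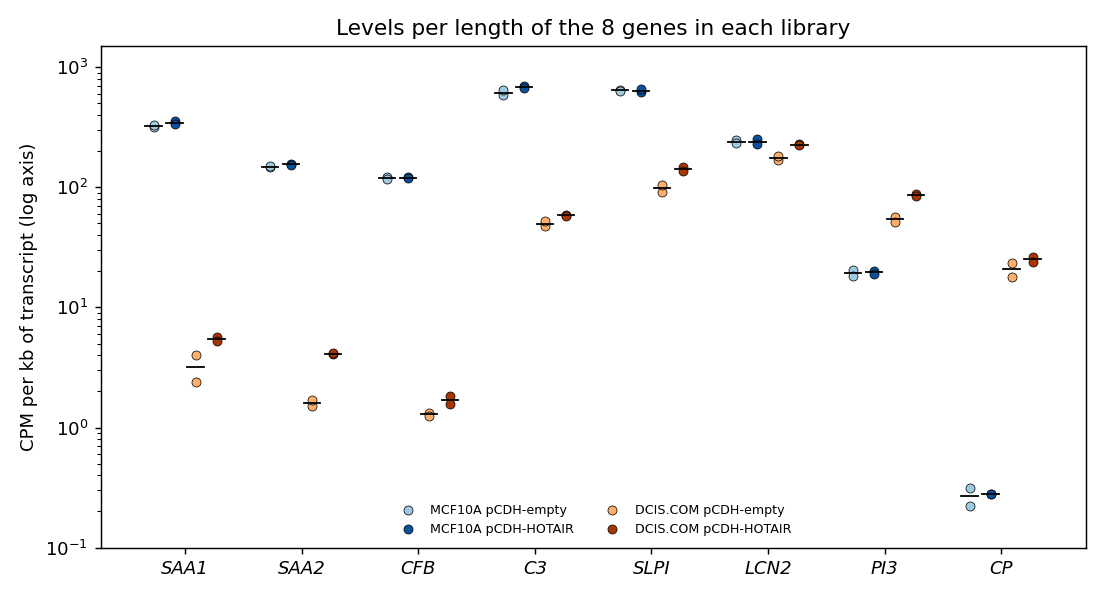
Level per length of the 8 genes, as CPM per kb of canonical transcript on a log axis (y axis), by gene (x axis) and group (color), with a point per library and a line at each mean. LCN2 spans 169 to 249.7 CPM per kb over all libraries, while CFB spans 1.25 to 122 and CP 0.223 to 26.4.

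The second comparison asked whether HOTAIR changed the 8 genes in MCF10A cells, and no change was detected. The log2 fold changes lay between -0.01 for SLPI and 0.15 for C3. None of the 8 was called, where 0.0218% of all genes (3 genes) were. At an unadjusted p under 0.05 the count was 0 of 8 and 1003 of 13771 in limma, and limma-voom on the recovered reads also called none of the 8. SAA1, SAA2 and C3 were higher in both HOTAIR libraries than in both empty-vector libraries, where this held for 22.5% of all genes.

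The 95% intervals bound the change of each gene. For C3 the log2 fold change was 0.15 (95% interval -0.04 to 0.33, adjusted p = 0.80, limma), and for LCN2 the interval ran from -0.16 to 0.16. SLPI had an interval from -0.19 to 0.18, PI3 from -0.21 to 0.25, CFB from -0.18 to 0.23 and SAA2 from -0.16 to 0.28. The widest were those of SAA1, from -0.38 to 0.56, and of CP, from -0.33 to 0.49, the latter on 24 to 37 reads per library. The error of each gene is shared over all groups, DCIS.COM included. For SAA1 the standard deviation of log2 CPM was 0.050 and 0.057 in the MCF10A groups with empty vector and HOTAIR. It was 0.52 in DCIS.COM pCDH-empty. A separate fit of MCF10A gave SAA1 a standard error of 0.045, against 0.20 over all libraries. The median absolute log2 fold change of the 8 was 0.04, and 0.09 over all genes.

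The third comparison, HOTAIR against empty vector in DCIS.COM, was in view when the genes were selected. In it all 8 genes had a higher mean with HOTAIR and both HOTAIR libraries above both empty-vector libraries, an order that 24.7% of all genes showed. The log2 fold changes were 1.31 for SAA2, 0.78 for SAA1, 0.68 for PI3, 0.54 for SLPI, 0.40 for CFB, 0.37 for LCN2, 0.28 for CP and 0.23 for C3. The median was 0.47, beside 0.01 over all genes. By the calling rule, 1 of the 8 (SAA2) was past the threshold, beside 0.0871% of all genes (12 genes). Since these are the values on which the genes were selected, nothing is read from that count.

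In reads, SAA2 had 26 and 26 with the empty vector against 84 and 80 with HOTAIR, and SAA1 had 37 and 56 against 104 and 91. PI3 went from 945 and 756 reads to 1720 and 1574, and SLPI from 1648 and 1662 to 3127 and 2742, at total depths of 25819136 to 34884841 reads. The serum amyloid genes, among the rarest of the 8 in this line, had the highest fold changes, and the abundant C3 had the lowest. CFB, also rare at 98 and 83 reads with the empty vector, had a log2 fold change of 0.40, below PI3 and SLPI. A relation of level to fold change was not tested. Summed, SAA1 and SAA2 gave a log2 fold change of 1.01.

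Without the first DCIS.COM pCDH-empty library, which stood apart, the log2 fold change was 0.42 for SAA1 and 0.09 for CP. Without the second it was 1.15 and 0.47. The other 6 genes moved less: SAA2 was at 1.23 and 1.39, PI3 at 0.75 and 0.60, SLPI at 0.45 and 0.63, CFB at 0.44 and 0.36, LCN2 at 0.33 and 0.42 and C3 at 0.16 and 0.30, without the first and without the second. The part of that library's composition in the values of SAA1 and CP was not tested. Even with HOTAIR, the DCIS.COM means of SAA1, SAA2 and CFB stayed 61.8-fold, 36.5-fold and 69.5-fold below the MCF10A means with HOTAIR.

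Set side by side, the log2 fold changes with HOTAIR were 0.06 in MCF10A and 1.31 in DCIS.COM for SAA2, 0.09 and 0.78 for SAA1, 0.02 and 0.68 for PI3, and -0.01 and 0.54 for SLPI. For C3 they were 0.15 and 0.23. Whether the lines differ in this was not tested, because the genes were selected on one of these comparisons.

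**Figure D4:**
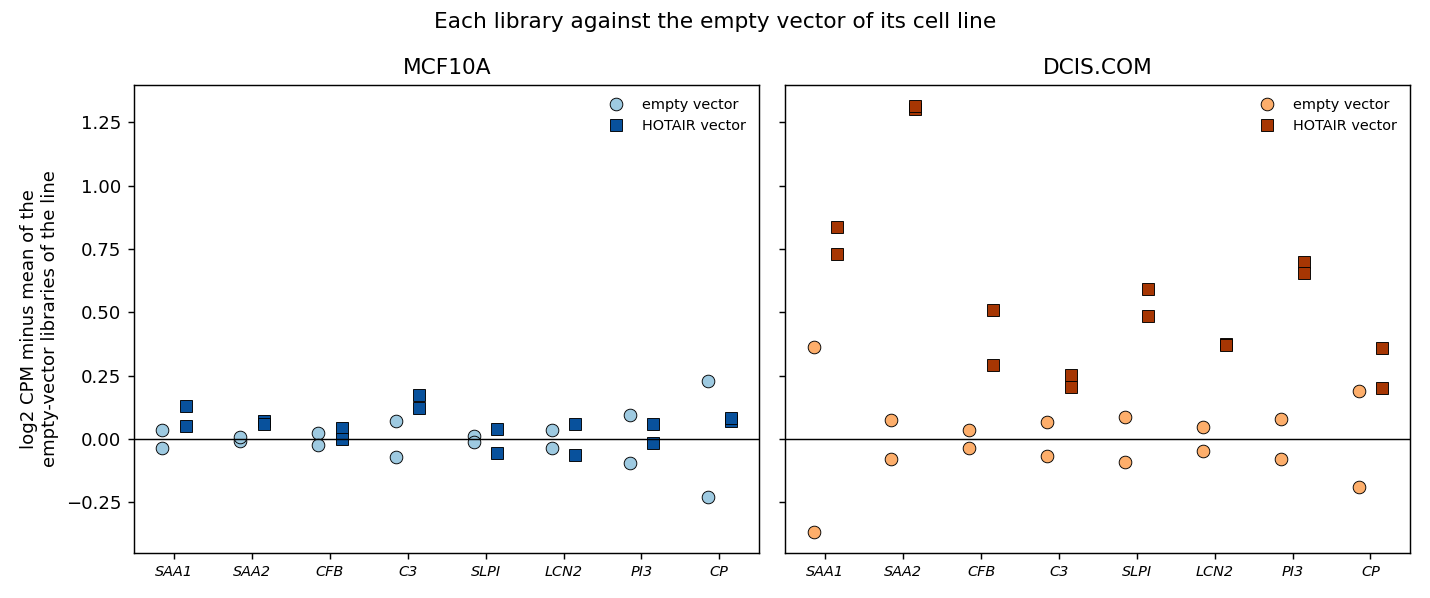
Each library's log2 CPM minus the mean of the empty-vector libraries of its line (y axis) for the 8 genes (x axis), in MCF10A (left) and DCIS.COM (right), circles for empty vector and squares for HOTAIR. In MCF10A the group means differ by at most 0.15, and in DCIS.COM every square is above both circles of its gene, from the closest pair, CP, to the farthest, SAA2, at 1.31.

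The cytokines and receptors that act upstream were examined as a list, of which 20 of 26 genes were in the table. Between the lines with the empty vector 5 were called higher and 10 lower, where 22.5% of all genes were called higher and 23.8% lower. The median log2 fold change of the listed genes was -0.70, beside 0.00 over all genes. IL1A and IL1B, the interleukin-1 cytokines that induce acute-phase genes, had log2 fold changes of -4.29 (standard error 0.11) and -4.41 (standard error 0.20), and IL1RN, their natural antagonist, of -4.42 (standard error 0.16). TLR2, a receptor for bacterial lipoproteins and for serum amyloid A, had 489 and 455 reads in MCF10A pCDH-empty and 1 and 0 in DCIS.COM pCDH-empty. LIF, an interleukin-6 family cytokine, was higher by 4.61 (standard error 0.073). With the HOTAIR vector 5 were again higher and 10 lower, where 22.0% of all genes were called higher and 21.7% lower.

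All 25 listed NF-kB, C/EBP and STAT3 factors and their feedback genes were in the table. Of these 14 were called lower and 1 higher with the empty vector (median -0.76), and 13 lower and 2 higher with HOTAIR (median -0.73). Over all genes 23.8% were called lower and 22.5% higher with the empty vector, and 21.7% and 22.0% with HOTAIR. The feedback inhibitors TNFAIP3 (A20), ZC3H12A (regnase-1) and SOCS1 were lower, with log2 fold changes of -4.34, -3.59 and -3.16 and standard errors of 0.12, 0.076 and 0.41. NFKBIZ, which encodes a nuclear co-activator needed for LCN2 induction, was lower as well, at -1.98 (standard error 0.10), like CEBPD at -1.84 (standard error 0.11) and SOCS3, a STAT3 target, at -1.72 (standard error 0.19). CEBPB was at -0.20 (adjusted p = 0.152, limma) and STAT3 at -0.43 (adjusted p = 0.00478, under 1.5-fold). CEBPA, which encodes another C/EBP factor, had 1 and 2 reads in MCF10A pCDH-empty and 202 and 165 in DCIS.COM pCDH-empty, and was called higher.

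Among 7 other acute-phase genes in the table (of 23 listed), 3 were called lower and 2 higher with the empty vector, and 4 lower and 2 higher with HOTAIR. The share called over all genes, in either direction, was 46.3% with the empty vector and 43.7% with HOTAIR. SAA4, the constitutive serum amyloid gene next to SAA2, had 80 and 62 reads in MCF10A pCDH-empty and 0 in both DCIS.COM pCDH-empty libraries, at least 23.1-fold lower against a floor of 3 reads per library. FTH1, the ferritin heavy chain, differed by -2.94 on the log2 scale (standard error 0.11). SERPINA1, alpha-1-antitrypsin, was higher by 3.47 (standard error 0.095), like CP and unlike the serum amyloid genes.

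Of 15 other complement components and regulators in the table, 10 were called lower and 2 higher with the empty vector (median -1.11), and 9 lower and 3 higher with HOTAIR (median -0.87). Beside this, 23.8% of all genes were called lower and 22.5% higher with the empty vector, and 21.7% and 22.0% with HOTAIR. C1S, a protease of the classical pathway, was at -3.55 (standard error 0.21). C2, the classical-pathway relative of CFB beside it, had 74 and 48 reads in MCF10A pCDH-empty and 1 and 2 in DCIS.COM pCDH-empty, and C3AR1, the receptor for the C3a fragment, had 31 and 25 against 3 and 0.

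The list with the lowest median was that of other antimicrobial proteins and antiproteases, where 14 of 17 genes in the table were called lower and 1 higher with either vector. Over all genes 23.8% were called lower and 22.5% higher with the empty vector, and 21.7% and 22.0% with HOTAIR. The median log2 fold change of this list was -4.42 with the empty vector and -4.06 with HOTAIR, also when genes at 0 reads were set to their bound. S100A8, a calprotectin subunit, had 4974 and 3768 reads in MCF10A pCDH-empty and 3 and 9 in DCIS.COM pCDH-empty. WFDC2, a WAP-domain protein like SLPI and PI3, was at -7.28 (standard error 0.35). The beta-defensin genes DEFB1 and DEFB4A were at 0 reads in both DCIS.COM pCDH-empty libraries, at least 127-fold and 185-fold lower, and DEFB4A has a near-identical copy, so its count is uncertain.

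Of the 5 receptors and partners of serum amyloid A and lipocalin-2 in the table, 3 were called higher and 2 lower with either vector. TLR2 and TLR4 are among these 5 and were also counted in the list of upstream cytokines and receptors. SLC22A17, a lipocalin-2 receptor, had 0 reads in all MCF10A libraries and 33, 32, 50 and 50 reads in the DCIS.COM libraries, at least 11-fold higher with the empty vector. SCARB1, which takes up high-density lipoprotein, was higher by 1.28 (standard error 0.080), and LRP1 was at -1.85 (standard error 0.27). Around ceruloplasmin, 2 of 11 copper and iron genes were called higher and 3 lower with the empty vector (median -0.21), and 2 higher and 5 lower with HOTAIR. FTH1 and FTL are in this list and also in that of other acute-phase genes. Over all genes 46.3% were called with the empty vector and 43.7% with HOTAIR. A count of 5 of 11 with the empty vector is near that share. HEPH, which encodes hephaestin, the membrane-bound relative of ceruloplasmin, was higher by 2.47 (standard error 0.097), while SLC11A2, an iron importer, was lower, at -1.24 (standard error 0.072), like ACO1, an iron-responsive RNA-binding protein, at -1.02 (standard error 0.081).

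No gene of these 7 lists was called for HOTAIR in either line in limma over all libraries. Over all genes the share called was 0.0218% in MCF10A and 0.0871% in DCIS.COM. The lack of a call is near these shares and is not read as a result about the lists. In MCF10A, 2 genes of these lists gained a call when the first or the second DCIS.COM pCDH-empty library, which only enter the error, was left out. SERPINA1 had a log2 fold change of 0.61 there (adjusted p = 0.155 over all libraries, limma, and 0.01001 or 0.01006 without one of the pair). CLU, which encodes clusterin and is named here after its values were seen, was at -1.09 (adjusted p = 0.1001, and 0.0113 or 0.0112). In DCIS.COM too, some genes of these lists were called when a pCDH-empty library was left out, which leaves a lone library in that group. The share called over all genes is not given for these fits, so nothing is read from these calls in either line.

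**Figure D5:**
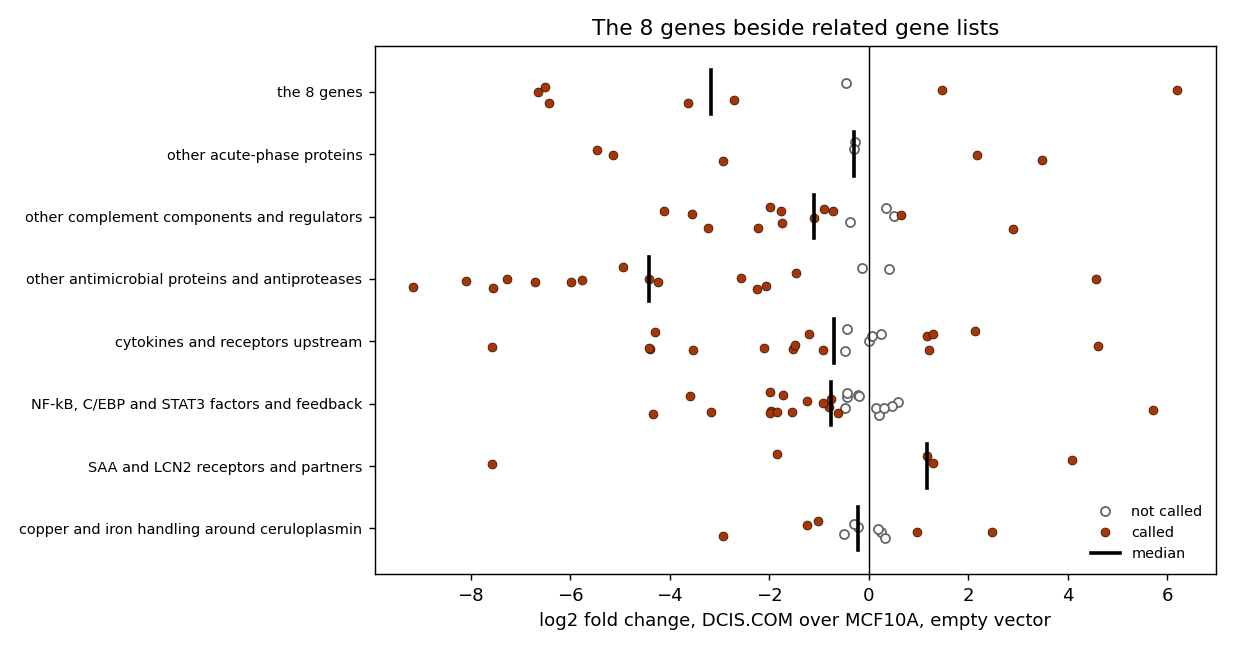
Log2 fold change of DCIS.COM over MCF10A with the empty vector (x axis) for the 8 genes and 7 related lists (y axis), with a point per gene, filled where called, and a bar at each median. The medians run from -4.42 for other antimicrobial proteins and antiproteases to 1.17 for the receptors, and the 8 genes spread from -6.64 to 6.20.

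For each of the 8 genes, the gene of the table with the closest pattern was found as the one with the smallest root mean square difference of log2 CPM over the 8 libraries, each gene centered on its own mean. For LCN2 this was IL10RB (0.053), followed by MTRF1 and UBE2E3. C3 was closest to IL1R1 (0.084), RIMS3 and BMP1, and SLPI to NT5E (0.068), CSTA and ACTA2. SAA1 was closest to FAP (0.11), ELAVL2 and SLC35G2, and SAA2 to LINC01133 (0.12), ANKRD36BP2 and SYNC. The nearest to CFB were KRT222 (0.14), ADAMTSL4 and TENT5B, to PI3 COL8A1 (0.15), FAM110C and EYA2, and to CP PRKD1 (0.15), ZNF518B and ITM2C. The 8 libraries share 2 cell lines, 4 groups and one normalization, and no test was made on these likenesses.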

How the data were processed

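The data are 8 RNA-seq libraries, 2 for each pairing of line (MCF10A, DCIS.COM) and vector (pCDH-empty, pCDH-HOTAIR). The authors aligned 76-nt paired reads to hg19 with Rsubread, counted them on UCSC known genes with featureCounts, normalized them with edgeR and deposited log2 CPM for 13771 genes, of which 343 had no symbol. Strand use and the handling of overlapping or near-identical genes are not given in the sources used here. As linear CPM, each library's values rose in equal steps from a shared prior of 0.0717 CPM, and 100% were whole steps to within 0.1 step. These reads give the depth, 19306864 to 34884841 per library, and counting error is largest for genes with few reads. Group labels came from the sample titles.

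All fold changes and tests were computed here with limma 3.58.1 (R 4.3.3), fitting a mean per group and moderating variances with a trend on expression level, on the deposited values of all genes, with Benjamini-Hochberg adjustment over all genes. Calls needed an adjusted p under 0.05 and 1.5-fold or more. Folds are on the log2(CPM + 0.0717) scale. The test was checked on simulated data with the same spread for all genes and with changes placed only in genes above a mean level. That check does not cover the larger spread of genes with few reads. The 8 genes, the related lists and the tests were chosen with earlier results of these data known. From each related list, up to 4 called genes per comparison with the largest change were named, and NFKBIZ, CEBPB, CEBPD, STAT3 and SOCS3 whether or not called. Some genes that this rule names are not reported here. Transcript lengths and positions came from GENCODE 44 on GRCh37 and promoters from RefSeq. Alternatives were priors of 0.1 and 1 CPM, a mean CPM of at least 2 (12222 genes), median centering, quantile normalization, no trend, the replicate number as a block, limma-voom on recovered reads, other fold thresholds (none, or a log2 fold change of 1.5), separate fits, each library left out, SAA1 and SAA2 summed and, chosen after seeing the data, the length of all exons joined. With a library left out, the lone library of that group is assumed to vary like the others. Python 3.11.15, pandas 2.3.3, numpy 2.4.6 and matplotlib 3.10.9 were used for the rest.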

Additional observations from a re-analysis of the deposited data

How the results depend on the processing

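Between the lines, 7 genes were called with each vector under the alternatives run, except that 6 features were called with either vector when SAA1 and SAA2 were summed into 1, and, with the empty vector, 8 with no fold threshold (LCN2 added) and 6 at a log2 fold change of at least 1.5 (PI3 lost). All 136 recomputed fold changes per vector kept their direction and, at 1.5-fold, their call. For HOTAIR in MCF10A, 0 of 8 were called under all 20 alternatives. There, 10 of 144 values turned direction: LCN2 to 0.0033 with median centering and 0.00088 with quantile normalization, and the others with a library left out, where the log2 fold changes ran from -0.062 to 0.061 for LCN2, -0.0020 to 0.046 for CFB, -0.072 to 0.12 for PI3, -0.056 to 0.041 for SLPI and -0.15 to 0.30 for CP. For HOTAIR in DCIS.COM, whose values were in view when the genes were selected and whose count is no test, the count of 1 past the threshold ran from 0 to 4 with a library left out, and was 0 with a separate fit of the line, with SAA1 and SAA2 summed, and at a log2 fold change of at least 1.5. SAA2 there moved from 1.31 to 0.82 with a prior of 1 CPM, 1.23 with quantile normalization and 1.01 summed with SAA1. SAA2 was at a mean of 0.917 CPM with the empty vector and 2.37 CPM with HOTAIR, where adding 1 CPM lowers the fold by arithmetic. The sum includes SAA1, at 0.78. The cause of the other shifts was not tested. With the replicate number as a block (replicate block), the counts were 0, 7, 7 and 1 as without it. Deviations of same-numbered libraries correlated at 0.066 in MCF10A and -0.0089 in DCIS.COM, so the numbers are not shown to pair libraries. Depth limits SAA1, SAA2 and CFB in DCIS.COM and CP in MCF10A.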

Other observations

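The genes within 100000 nt of the 8 genes were looked at after their values had been seen, between the lines with the empty vector. Of 32 neighbours in the table, 16 (50.0%) were called, 3 higher and 13 lower, near the 46.3% called over all genes. At the serum amyloid locus, HPS5, 8691 nt from SAA1, had a log2 fold change of -0.34 and GTF2H1 of -0.31, beside -6.64 for SAA1 and -6.44 for SAA2, and SAA4 was called lower. Of 11 neighbours of CFB, 6 were called lower, which were C2, C4A, C4B, TNXA, TNXB and STK19, and 0 higher, while NELFE, 1 nt away, was at -0.14. C4A and C4B, like TNXA and TNXB, are close copies whose reads could have been split. Near C3, TNFSF14 and CD70, both members of the tumor necrosis factor family, were at -3.77 and -4.06 while GPR108, which overlaps C3, was at 0.01. HPS3, which overlaps CP, was at -0.03, and TM4SF18, 96669 nt from CP, was called higher like CP. SDC4, next to SLPI, was at -0.53, and no gene of the table within the same distance of LCN2 was called lower.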
